A study of Mus musculus with 6 samples.

Results

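The genes described here make the machinery that copies DNA in S phase, together with the cyclin E and E2F genes that switch it on and 2 genes of the replication checkpoint and repair. Of 47 genes listed by symbol, 45 were measured among the 22180 genes tested. Rfc4 and Ccne2 were not measured, because the probe set that carries their name also names another gene. Each gene was read by its single-symbol probe set with the highest mean over 6 arrays.

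RNA of CD8+ T cells from C57BL/6 mice was hybridised to 3 arrays labelled wild type (WT) and 3 labelled Dot1l knockout (KO). Dot1l encodes an enzyme that methylates lysine 79 in the core of histone H3. The labels' protocols describe Dot1l flox/flox mice crossed with CD4-Cre mice, whose Cre acts from the Cd4 promoter and therefore already in thymocytes that later become CD8+ or CD4+ cells. Spleens and peripheral lymph nodes gave the cells, which were isolated fresh with an EasySep CD8+ kit, and the labels list no treatment. The labels leave unstated the mice's age, the Cre and flox status of the wild type mice, and whether each array came from its own mouse, so p-values measure the spread between these arrays, which may be technical.

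DNA replication starts at origins that are licensed when the origin recognition complex, CDC6 and CDT1 load the ring of MCM proteins from MCM2 to MCM7, the replicative helicase. CDC45 and the GINS complex then activate the helicase, primase and polymerase alpha lay down primers, and polymerases delta and epsilon extend the strands on the sliding clamp PCNA. Most of these genes are transcribed under E2F factors when a cell leaves quiescence. Resting CD8+ T cells hold this programme low and dividing T cells raise it, so in RNA from whole cell preparations a difference can come from more cycling cells or from more RNA per cell, which cannot be told apart here.

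E2F factors bind a short motif near many of these start sites. The sequences are shown because they carry that motif in front of genes given below. They come from RefSeq promoter windows on mouse build GRCm38.p6 and are written 5′ to 3′ along the gene's strand, with motif bases in capitals. The search covered the 250 bases before each annotated start for TTTCCCGC, TTTCGCGC, TTTGCCGC and TTTGGCGC on both strands, where matches on opposite strands may overlap. Mcm6 (chr1:128359715-128359845, minus strand) held 3 matches, the first pair overlapping on opposite strands, and Mcm5 (chr8:75109326-75109397, plus strand) held 2 overlapping ones. The Pola1 window (chrX:93632275-93632304, minus strand) held 1 match. The stretch of 68 bases around it overlaps the span of the RefSeq gene in part or in full.
Mcm6: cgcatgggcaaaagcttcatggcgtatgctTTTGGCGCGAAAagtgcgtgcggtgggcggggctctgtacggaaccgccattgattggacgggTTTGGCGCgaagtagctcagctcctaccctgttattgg
Mcm5: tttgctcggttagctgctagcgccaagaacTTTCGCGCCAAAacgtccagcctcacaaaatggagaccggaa
Pola1: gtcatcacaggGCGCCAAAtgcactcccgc
The match nearest to the annotated start ended 39 bases upstream in Mcm6, 141 in Mcm5 and 130 in Pola1.

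Of 37 measured genes of the list with a promoter window, 10 (27%) held the E2F motif, beside 459 of 16990 tested genes with a window (2.7%). In a separate list of other replication genes 13 of 54 (24.1%) held it. CCAAT, the site of NF-Y, stood in 25 of the 37 (67.6%), beside 38.7% of tested genes. TTTGAA, the core of the cell cycle homology region, stood in 7 (18.9%), beside 16.1%. The windows of the list held a median of 58% G and C and those of all tested genes 55.6%. A match describes letters and not binding, and no test was made. Of the genes that passed the expression test below, Pola1 and Mcm6 held the E2F motif, and Rrm2 and Chek1 held no match in this window. Pole, which also passed, had no promoter window and was not searched.

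All values that follow are RMA log2 levels, so a difference of 1 is a 2-fold change. Values are given as mean ± SD of 3 arrays per group, and differences as KO minus WT with their standard error (SE). Differences were tested with limma and adjusted by the Benjamini-Hochberg method over all 22180 genes, with 0.05 as the threshold. As a guide to background, 95% of 1390 smell and pheromone receptor genes, not known to serve in T cells, read below 3.84. The mean of Orc1 lay below it in both groups, and the means of Gins1 and Chek1 lay below it in WT arrays only. The median level of the array was 3.69 to 3.78 in each of the 6. Cd8a, the defining CD8 chain, read 11.12 in WT and 10.95 in KO arrays. The Dot1l probe set read 7.20 ± 0.25 in WT and 7.30 ± 0.04 in KO arrays (difference 0.10, SE 0.13, adjusted p = 0.765). It checks no label, since the labels do not say which exon was deleted, and groups are called KO and WT as labelled.

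A few replication genes were higher in KO arrays, by small amounts, and none passed as lower. Rrm2, Pole, Pola1, Chek1 and Mcm6 rose 1.34-fold to 1.65-fold, and the other 40 did not pass. These 5 of 45 stand beside 4.3% of all tested genes called higher and 5.5% called in either direction. Among the 11389 genes whose mean lay above the background guide, 7.87% were called higher and 2.08% lower. The 0 of 45 called lower stand beside 1.2% of all genes. At an unadjusted p under 0.05 in limma, 2 of 45 were below 0, beside 1514 of 22180 genes, and 17 were above 0, beside 2476 of 22180, and these 19 of 45 stand beside 18% of all genes and 27.4% of those above the guide.

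The list's median difference lay 0.09 above that of the genes above the background guide, as deposited and after both rescalings, while the values themselves moved with scaling. Median centring lowered every gene by 0.05, so differences above 0 but smaller than that had to change sign. Quantile normalization lowered the 45 genes by 0.01 to 0.20. Of the 45 genes 37 had a difference above 0 as deposited, 28 after median centring of the arrays and 25 after another quantile normalization. The median difference was 0.13, 0.08 and 0.03 in that order, against 0.04, -0.01 and -0.06 over the genes above the background guide. The shares of genes above 0 were 82.2%, 62.2% and 55.6% of the list, beside 55.9%, 47.6% and 39.9% of those genes. Median centring left 4 genes called higher and 1 lower, and quantile normalization 1 higher (Rrm2) and 1 lower (Rpa1). Over all genes the calls were 954 higher and 266 lower as deposited, 755 and 342 after centring, and 625 and 470 after quantile normalization. The arrays also differed in the median level of probe sets without a gene name, at 3.34 to 3.49 in WT and 3.55 to 3.63 in KO arrays. With that median as a covariate 0 of the 45 passed in limma, 7 at an unadjusted p under 0.05. The covariate's values did not overlap between the groups, so this fit separates group from covariate poorly, and its lost calls decide nothing. Over all genes 165 were called higher and 51 lower in that fit. The differences themselves did not all shrink: Rrm2 went from 0.72 to 0.91, Mcm6 from 0.42 to 0.49, Pole from 0.63 to 0.59, Pola1 from 0.52 to 0.40 and Chek1 from 0.61 to 0.33. The median of the list went from 0.13 to 0.19, and the part of these probe sets in the result was not tested.

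**Figure D1:**
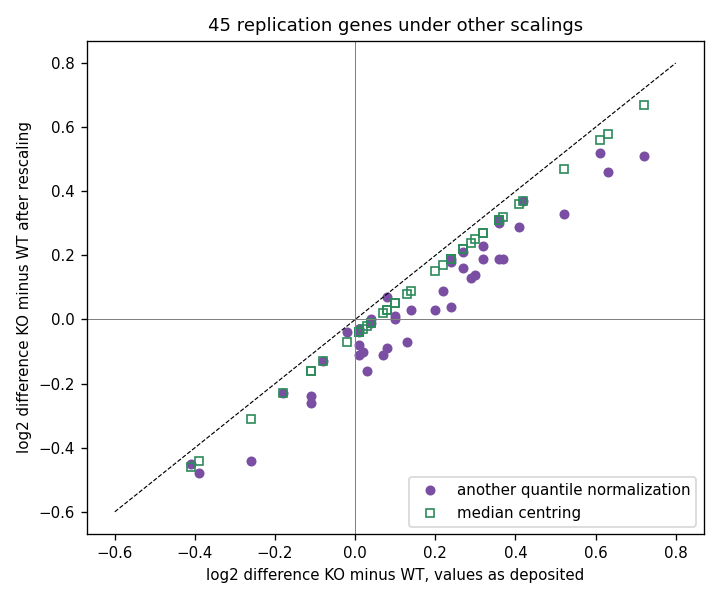
Each of the 45 replication genes is drawn by its log2 difference, KO minus WT, as deposited (horizontal) and after another quantile normalization (filled circles) or median centring (open squares); the dashed line marks equal values. Points lie below the line, at 0.05 under it for median centring and 0.01 to 0.20 under it for quantile normalization; genes above the background guide went from 55.9% above 0 to 47.6% and 39.9%.

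Probe sets with a dim reading leaned up more than bright ones. The 17 genes with a mean level below 5 had a median difference of 0.22, with 16 above 0, and 1 of them passed. The 14 genes between 5 and 7 had a median of 0.10, with 3 called. The 14 genes above 7 had a median of 0.03, with 10 above 0 and 1 called. Over all tested genes the medians in these bands were -0.04, 0.07 and 0.03. Levels of different probe sets are not comparable as RNA amounts, since each probe set has its own response.

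**Figure D2:**
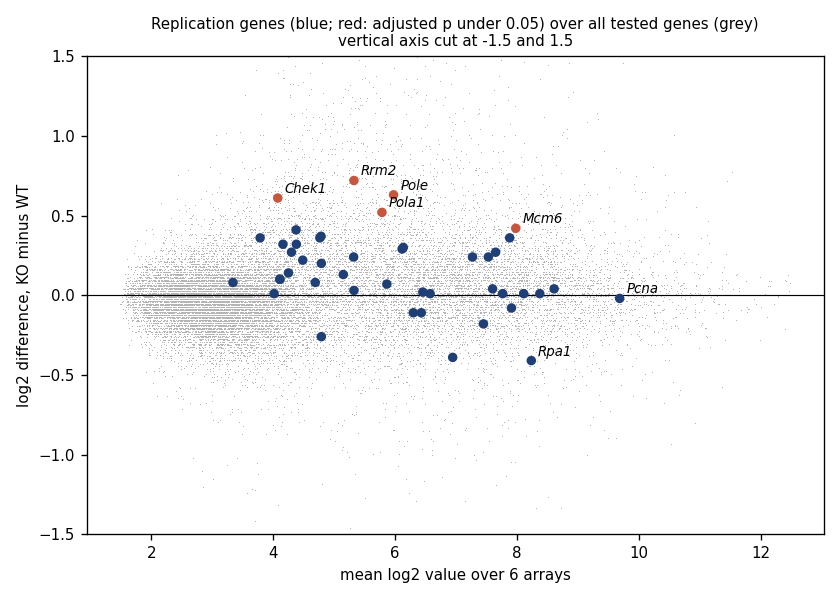
The log2 difference, KO minus WT, is drawn against the mean log2 value over 6 arrays for all 22180 tested genes (grey) and the 45 replication genes (blue, or red where adjusted p was under 0.05), with the vertical axis cut at 1.5 on either side of 0. The replication genes stay between -0.41 and 0.72, and the 5 called genes are all above 0.

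Among the 6 subunits of the replicative helicase, 1 rose and 5 did not pass. Mcm6 read 7.72, 7.87 and 7.73 in WT arrays and 8.10, 8.20 and 8.28 in KO arrays. Every KO array lay above every WT array, and the difference was 0.42 (SE 0.10, 95% interval 0.19 to 0.65, adjusted p = 0.0491). This call passed without WT replicate 2 and ended when any other array was left out, with adjusted p up to 0.192, and it ended after either rescaling (0.09 and 0.0908).

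Mcm2, its neighbour in the ring, read 7.64, 7.82 and 7.65 in WT arrays and 7.93, 8.08 and 8.16 in KO arrays. The groups were apart here too, yet the difference of 0.36 (SE 0.11) had an adjusted p of 0.112. Mcm7 read 7.41, 7.46 and 7.36 against 7.62, 7.58 and 7.76 (0.24, SE 0.10, adjusted p = 0.241), again with KO arrays on top. Mcm5, whose promoter is shown above, differed by 0.27 with overlapping groups. Mcm4 (0.04) and Mcm3 (0.01) differed by less than the 0.05 that median centring takes from every gene, so their sign follows the scaling. So the subunits of 1 complex, which work in equal numbers in the ring, gave differences from 0.01 to 0.42, and differences between subunits were not tested.

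The related MCM proteins outside that ring did not pass. Mcm8, a helicase of recombination repair, read 4.25, 4.10 and 4.13 in WT arrays and 4.28, 4.45 and 4.58 in KO arrays. The groups just failed to touch, and the adjusted p was 0.239 (difference 0.27, SE 0.11). Mcm10, which helps to start the fork, differed by 0.22 with overlapping groups.

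Origin recognition and licensing genes showed 0 of 5 called. Cdc6, the loader of the MCM ring, read 4.13, 4.15 and 4.38 in WT arrays and 4.37, 4.46 and 4.80 in KO arrays. The groups overlapped narrowly, between WT replicate 3 and KO replicate 1, and the difference was 0.32 (SE 0.14, adjusted p = 0.251). Gmnn, which encodes the licensing inhibitor geminin, differed by 0.14, Orc1 by 0.08 and Orc6 by -0.11. Cdt1, the partner of CDC6 in licensing, differed by 0.01 (95% interval -0.22 to 0.23) and by -0.04 after median centring.

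The helicase activators gave 0 of 5 called. Gins1, a GINS subunit, read 3.70, 3.57 and 3.54 in WT arrays and 3.79, 3.90 and 4.20 in KO arrays. All KO arrays were higher (0.36, SE 0.13, adjusted p = 0.171), but each WT value and KO replicate 1 sat under the background guide, which makes the size uncertain. Gins2 read 4.70, 4.73 and 4.33 against 4.92, 4.89 and 5.02, with the same difference of 0.36 (SE 0.13, adjusted p = 0.171). Its groups did not overlap, and WT replicate 3 was the lowest. Cdc45 differed by 0.20, Gins3 by 0.07 and Gins4 by 0.01, and the last pair read -0.11 and -0.04 after quantile normalization.

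Catalytic subunits of polymerases epsilon and alpha rose, whereas the other 4 polymerase and primase genes did not pass. Pole, the catalytic subunit of the leading-strand polymerase epsilon, read 5.79, 5.63 and 5.56 in WT arrays and 6.29, 6.16 and 6.43 in KO arrays. The lowest KO array was above the highest WT array, and Pole rose 1.55-fold (0.63, SE 0.11, adjusted p = 0.0122). A dimmer probe set of Pole read 3.21 ± 0.25 against 3.07 ± 0.11, below the background guide, and averaging the pair of probe sets brought the difference to 0.25 (adjusted p = 0.256). The call also ended without WT replicate 3 or KO replicate 3 (adjusted p = 0.0529 and 0.0657).

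Pola1, the catalytic subunit of polymerase alpha that extends the primers, read 5.53, 5.46 and 5.58 in WT arrays and 5.98, 6.04 and 6.11 in KO arrays. The values within each group were close and the groups were well apart (0.52, SE 0.10, 1.43-fold, adjusted p = 0.0155). The call ended without KO replicate 2 or 3 (adjusted p = 0.0655 and 0.0824), and after quantile normalization Pole and Pola1 had an adjusted p of 0.0527 and 0.1. Prim2, the large primase subunit, differed by 0.24 with groups apart (adjusted p = 0.271). The small primase subunit Prim1 differed by 0.02, or -0.03 after median centring, the accessory subunit Pola2 by -0.08, and Pold1, the catalytic subunit of polymerase delta, by -0.11.

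None of the 5 sliding clamp and clamp loader genes passed. Pcna, the clamp that tethers polymerases to DNA, differed by -0.02 (95% interval -0.29 to 0.24, adjusted p = 0.948) from a WT level of 9.70 ± 0.15. Rfc5, a subunit of the clamp loader, read 5.94, 6.20 and 5.76 in WT arrays and 6.21, 6.19 and 6.39 in KO arrays. WT replicate 2 reached into the KO values, and the difference of 0.29 (SE 0.13) had an adjusted p of 0.277. Rfc3 differed by 0.10, Rfc2 by 0.01 (-0.04 after median centring) and Rfc1, the large subunit, by -0.18.

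The single-strand binding protein RPA has its large and middle subunits on the list, and neither gene passed. Rpa1, the large subunit, read 8.44, 8.54 and 8.34 in WT arrays and 7.96, 7.99 and 8.14 in KO arrays. Every KO array lay below every WT array, and the difference of -0.41 (SE 0.11, 95% interval -0.65 to -0.17) had an adjusted p of 0.0617. It passed after quantile normalization (0.0448), after median centring (0.0484), with trend and robust fitting (0.0181) and among the brighter 50% of genes (0.0297). It passed in 0 of the 6 fits without 1 array (0.087 to 0.203). Nor did it pass among genes above the 25th percentile of level (0.0504), with array weights (0.0721) or with the replicate block (0.149). With the median of unnamed probe sets as a covariate the difference was -0.32 (0.499). A dimmer probe set of Rpa1, below the background guide, differed by -0.17. Averaging the pair brought the difference to -0.29 (adjusted p = 0.181).

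Rpa2, the middle subunit, read 7.04, 7.14 and 7.24 in WT arrays and 6.89, 6.51 and 6.85 in KO arrays. KO replicate 2 was the lowest, the groups did not overlap, and the difference was -0.39 (SE 0.13, adjusted p = 0.135). Rpa3, the small subunit and outside the list, differed the other way by 0.22 with overlapping groups (adjusted p = 0.516). Groups that did not overlap, with KO below WT, were seen for 3 of the 45 genes (Rpa1, Rpa2 and Pold1), beside 9.78% of all tested genes and 11.2% of those above the background guide. The ligase gene Lig1, which seals the lagging strand, differed by 0.30 with overlapping groups, and the flap nuclease gene Fen1 by 0.03, or -0.02 after median centring.

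Nucleotide supply held the largest rise of the list. Rrm2, the regulatory subunit of ribonucleotide reductase, which makes deoxyribonucleotides and limits their supply in S phase, read 4.81, 5.07 and 5.02 in WT arrays and 5.71, 5.71 and 5.64 in KO arrays. The 3 KO values were nearly equal, and all lay above the WT values (0.72, SE 0.11, 1.65-fold, adjusted p = 0.00462). Of the 5 called genes it alone passed whichever of the 6 arrays was left out, with differences from 0.64 to 0.77. A probe set of Rrm2 that read 2.13 ± 0.15 against 2.23 ± 0.21, below the background guide, differed by 0.10, and averaging the pair brought the difference to 0.41 (adjusted p = 0.0818).

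Rrm1, the partner subunit of the same enzyme, differed by 0.04 (95% interval -0.19 to 0.28), or by -0.01 after either rescaling. Tk1, the thymidine kinase of cycling cells, read 4.68, 4.64 and 4.50 in WT arrays and 5.13, 4.81 and 4.97 in KO arrays. The groups were apart, but the difference of 0.37 (SE 0.12) had an adjusted p of 0.124. Tyms, the thymidylate synthase gene, differed by 0.13, and by -0.07 after quantile normalization.

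None of the 6 measured cyclin E and E2F genes passed. E2f8, a repressor that E2F induces in late S phase, read 4.34, 4.11 and 4.05 in WT arrays and 4.68, 4.52 and 4.55 in KO arrays. The groups did not overlap (0.41, SE 0.11, adjusted p = 0.0745), and E2f8 passed without WT replicate 1 (0.0447) and in the test of the brighter 50% of genes (0.0381). E2f1, an activator of S-phase genes, read 4.03, 3.80 and 4.16 against 4.18, 4.46 and 4.32. The highest WT value lay just under the lowest KO value, and the difference was 0.32 (SE 0.13, adjusted p = 0.209). Ccne1, the cyclin E1 gene, differed by 0.24, the activator E2f3 by 0.08 (-0.09 after quantile normalization), the repressor E2f7 by 0.10 (0.00 after quantile normalization) and the activator E2f2 by -0.26.

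Chek1, the kinase that slows replication when forks stall, rose 1.53-fold. It read 3.79, 3.63 and 3.89 in WT arrays and 4.35, 4.63 and 4.17 in KO arrays. The groups were apart (0.61, SE 0.14, adjusted p = 0.0329), but the WT mean of 3.77 lay below the background guide, so the size is uncertain. The call held only without KO replicate 3 among the fits that left out 1 array, with adjusted p up to 0.118 in the others, and it ended after quantile normalization (0.0564). Brca1, a repair gene that protects forks, differed by 0.01 (95% interval -0.32 to 0.34), or -0.04 after median centring.

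**Figure D3:**
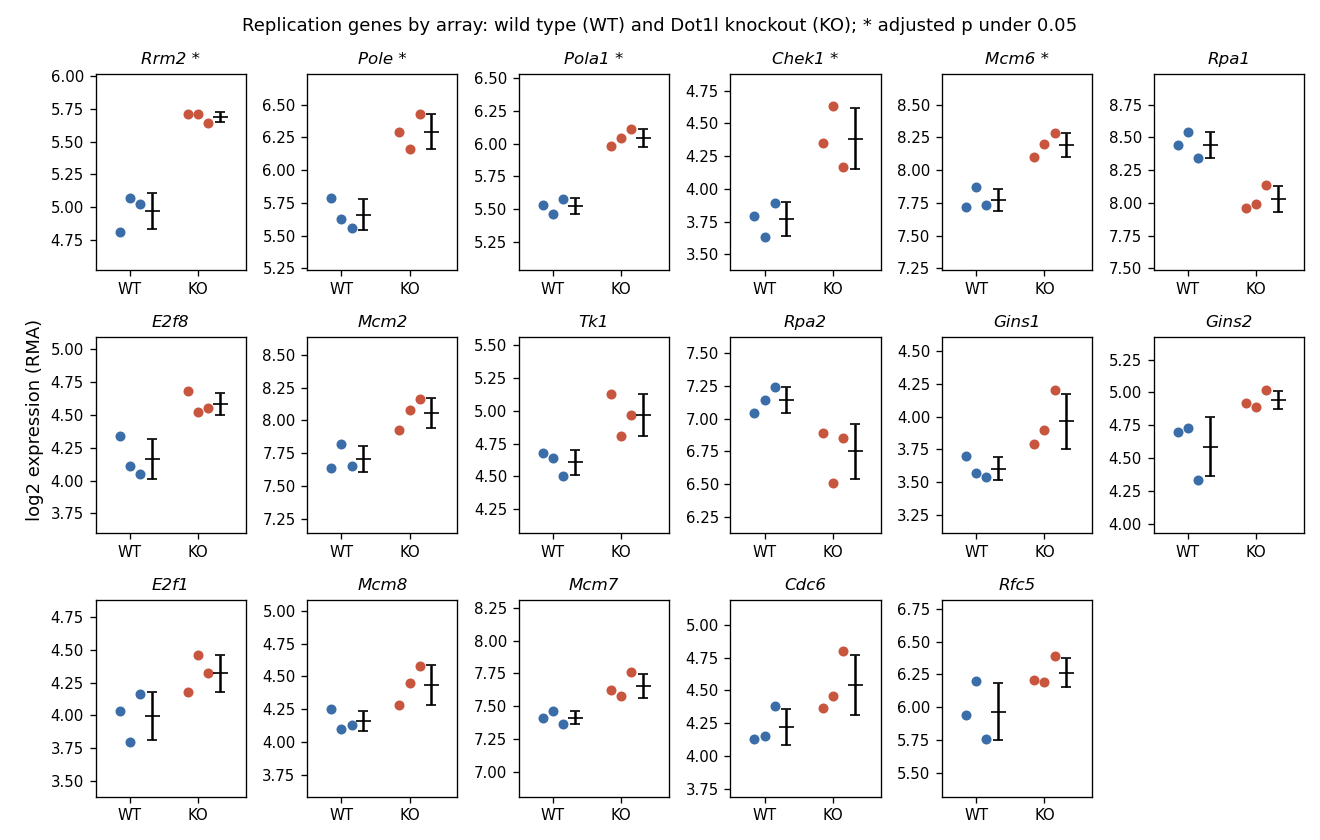
Log2 levels of the 17 replication genes with per-array values in the text are drawn for each WT array (blue) and KO array (red), with the mean and SD of 3 arrays in black and a star where adjusted p was under 0.05; each vertical axis spans 1.5 log2 units. In Rrm2 the KO arrays read 5.64 to 5.71 above 4.81 to 5.07 in WT, and Rpa1 and Rpa2 go the other way.

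**Figure D4:**
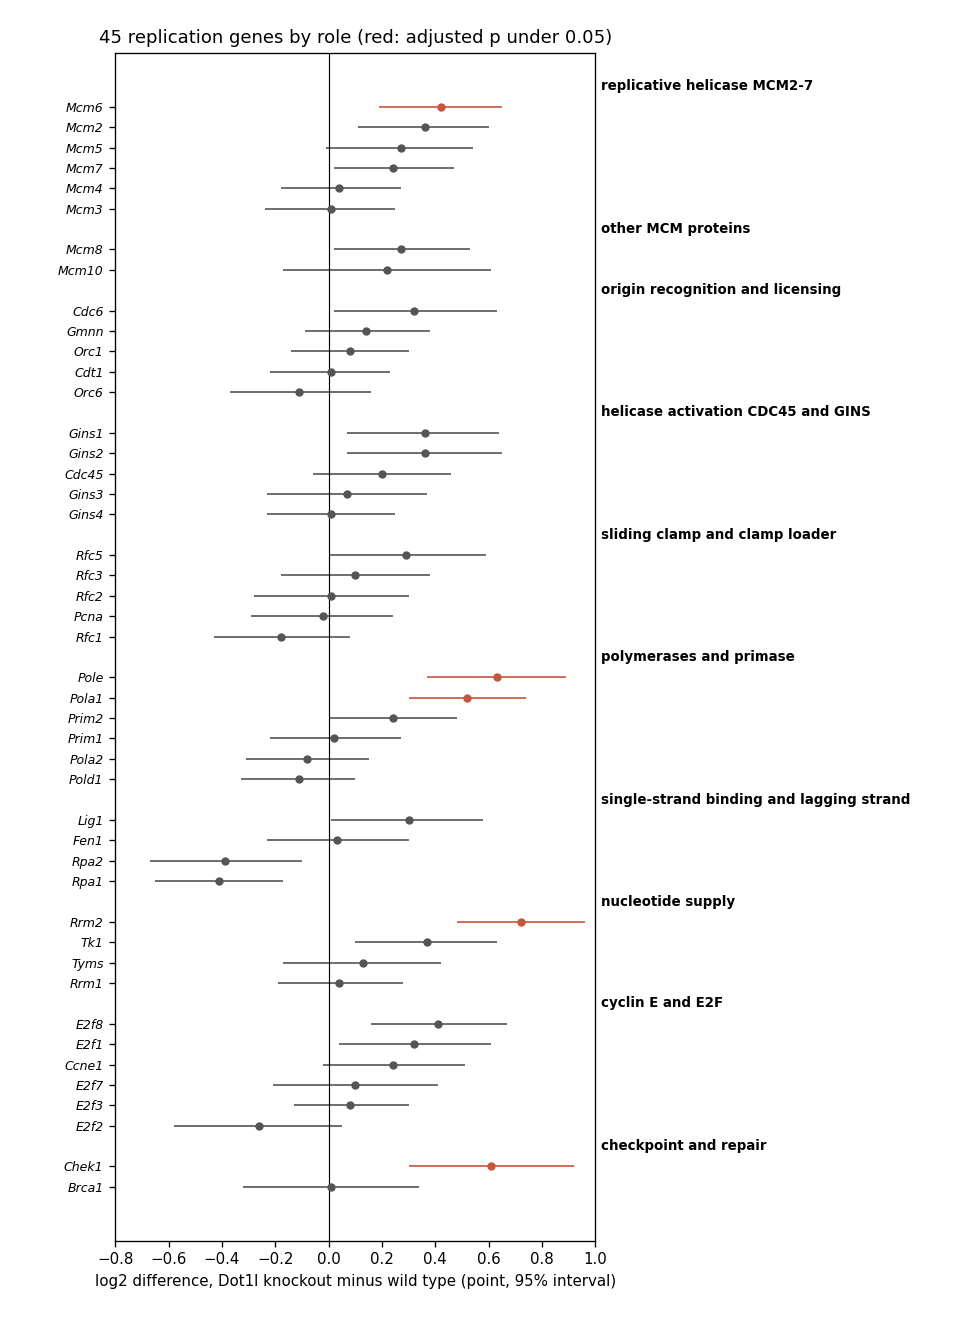
The log2 difference, KO minus WT, of each of the 45 genes is drawn with its 95% interval and grouped by role, in red where adjusted p was under 0.05. The called genes lie in 4 roles, and some uncalled genes, E2f8 (0.16 to 0.67) and Rpa1 (-0.65 to -0.17) among them, have intervals that leave out 0 but an adjusted p above 0.05.

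Seen by array, KO replicate 3 stood highest. The median over the 45 genes of a gene's value minus its own mean was -0.09 to -0.06 in WT arrays, 0.03 and 0.02 in KO replicates 1 and 2, and 0.15 in KO replicate 3. That array held the highest value of the 6 for 22 of the 45 genes. Without it 2 genes passed (Chek1 and Rrm2), 30 of 45 were above 0 and the median difference was 0.11. Leaving out WT replicate 3 or KO replicate 2 also left 2 called genes, with medians of 0.14 and 0.19. Groups that did not overlap with KO above WT were seen for 14 of the 45, beside 13.7% of all tested genes and 22.6% of genes above the background guide. The SD within a group ran from 0.01 to 0.25 in WT and from 0.04 to 0.32 in KO arrays. Of the 45 differences 28 were larger than the larger of both SDs. That count was not made over all genes, so it does not show whether the list stands out.

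A second list of 69 replication genes outside the 47 was read alongside, of which 65 were measured. Of these 5 rose, 1 fell and 59 did not pass, with a median difference of 0.07, and 41 were above 0 (28 after quantile normalization, 36 after median centring). Their 5 higher and 1 lower calls stand beside 7.87% and 2.08% of genes above the background guide, of which 55.9% were above 0. Ccna2, the cyclin A2 gene of S phase, rose from 5.53 ± 0.31 to 6.41 ± 0.03 (0.88, SE 0.15, adjusted p = 0.00836) and passed whichever array was left out. Mcm9, the partner of MCM8 in repair, rose by 0.58 (SE 0.10), Top2a, a topoisomerase, by 0.56 (SE 0.11), the E2F partner gene Tfdp1 by 0.48 (SE 0.11) and the origin-firing gene Ticrr by 0.52 (SE 0.13).

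Dbf4, the activator of the kinase that fires origins, fell from 8.33 ± 0.23 to 7.70 ± 0.07 (-0.63, SE 0.13, adjusted p = 0.0216). It read 8.38, 8.08 and 8.53 in WT arrays and 7.65, 7.78 and 7.67 in KO arrays, with no overlap. The calls of Dbf4, Tfdp1 and Ticrr each held in 1 of the 6 fits that left out an array (adjusted p up to 0.0944, 0.146 and 0.178). Mcm9 failed without KO replicate 3 (0.0524), and Top2a without KO replicate 2 or 3 (0.0648 and 0.0809). Tfdp1 and Ticrr ended after both rescalings.

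Genes listed as markers of other cells moved with the replication genes in part, and bulk arrays do not show which cells their RNA came from. Of 10 measured B cell markers 3 rose, with Cd22 at 1.29 and Ms4a1 at 1.13, and their summed linear level was 262 to 290 in WT and 353 to 399 in KO arrays. The other called marker was Cd79a, from 5.09 to 5.95. Of the 10 markers, 7 had a mean above the background guide in at least 1 group. Ms4a1 (3.24 in WT and 4.37 in KO arrays) and Fcer2a (3.76 and 4.18) were above it in KO arrays only, so their sizes are uncertain. Also among the 7 were Cd79b (6.52 in WT and 6.76 in KO arrays), Bank1 (5.64 and 5.89) and Blk (4.50 and 4.41). Pax5, Ebf1 and Cr2 were below the guide in both groups. Differences were above 0 for 8 of the 10 and below 0 for 2, Blk (-0.09) and Pax5 (-0.19). Erythroid precursor markers, of which 4 of 10 were measured, gave 0 calls, with sums of 108 to 147 and 126 to 129, and plasma cell markers 0 of 7. NK cell markers were above 0 in 4 of 4 cases, with a median of 0.43, 1 call (Tyrobp) and sums of 96.7 to 116 in WT and 123 to 143 in KO arrays. Of 9 CD8 T cell markers 1 fell, Cd5, by 1.01 (adjusted p = 0.000376), and the other 8 did not pass. One marker each rose among 7 dendritic cell, 11 myeloid and 7 CD4 T cell markers, and 1 fell in each of the last pair of lists. Most differences in these lists were below 0: 5 of 7 dendritic cell, 8 of 11 myeloid and 5 of 7 CD4 T cell markers. Their part in the result was not tested. Mitosis genes rose in 4 of 19 cases, with 18 above 0 and a median of 0.31, and are described at the end. The counts of these lists stand beside 4.3% of all tested genes called higher, 1.2% called lower and 47.2% above 0. Among genes above the background guide the shares were 7.87%, 2.08% and 55.9%.

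**Figure D5:**
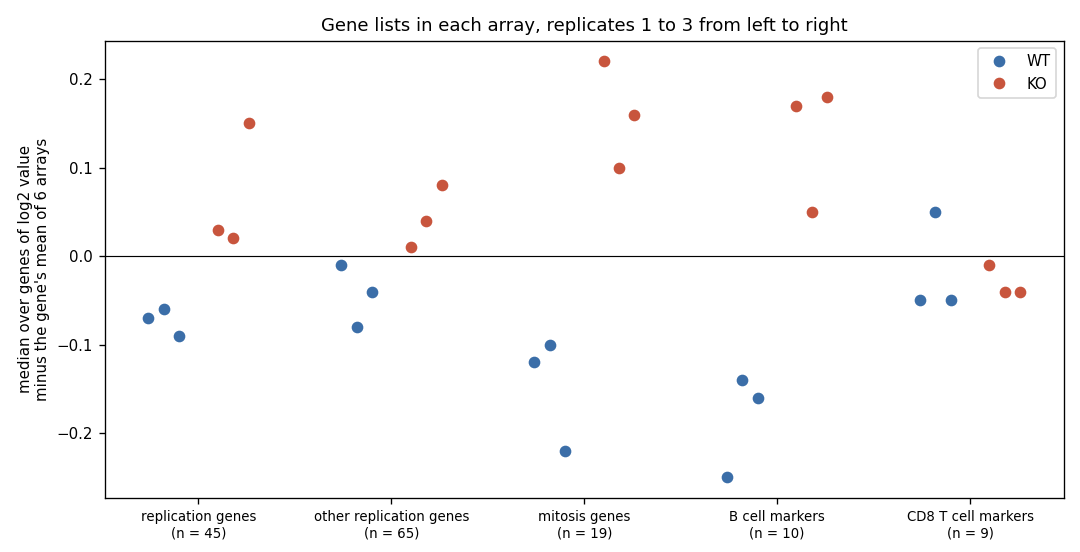
For 5 gene lists the points give, in each array, the median over genes of the log2 value minus the gene's mean of 6 arrays, for WT (blue) and KO (red). The replication genes run from -0.09 to 0.15, with KO replicate 3 on top, and the mitosis genes from -0.22 to 0.22.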

How the data were processed

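Total RNA of CD8+ T cells was hybridised to 6 Affymetrix arrays, 3 per group, grouped by the submitters' titles. The deposited table holds log2 values made by the authors, and the submitters' processing notes name RMA and R 3.1.1. This method corrects background, quantile-normalizes arrays and summarises probes, and it compresses differences of dim probe sets. Annotation version, genome build and filters were not given in the sources used here. Of 41345 probe sets 23521 named 1 gene in the platform annotation, 1814 several and 16010 none. Where a gene had several, its brightest probe set over all arrays was used. Arrays have no count depth, and their number limits the precision.

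Genes were tested with limma 3.58.1 in R 4.3.3 (lmFit, eBayes, no covariate), two-sided, with Benjamini-Hochberg adjustment over 22180 genes, and the script was tested on simulated data. The genes and lists were chosen with earlier results of these data known. Per-array values are given for the 15 smallest p of the list and the smallest p of each role. Of other replication genes, those that passed are named. Mcm5's promoter, the members near 0, Rpa1's alternatives and the marker and mitosis genes were picked after seeing values. Deviations of same-numbered arrays correlated at -0.07, -0.16 and -0.07, and those of unlike-numbered arrays at -0.04 to 0.12. These values gave no sign that replicate numbers pair the arrays, and with 3 arrays per group they cannot exclude it.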

Additional observations from a re-analysis of the deposited data

How the results depend on the processing

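Limits lie in the 3 arrays per group and in scaling, which lowered differences of the 45 genes by 0.05 (median centring) or 0.01 to 0.20 (quantile normalization). The 5 genes called higher became 1 after quantile normalization, 4 after median centring and 3 when a gene's probe sets were averaged. They became 0 with the median of unnamed probe sets as a covariate, 1 at an adjusted p under 0.01, and 2 to 4 when 1 array was left out. With trend and robust fitting, above the 50th percentile of level and at an adjusted p under 0.10 the count was 6. It stayed 5 with array weights and above the 25th percentile of level. The 0 called lower became 1 (Rpa1) after quantile normalization, after median centring and with trend and robust fitting. They also became 1 (Rpa1) among genes above the 50th percentile of level and at an adjusted p under 0.10. They stayed 0 in each fit without 1 array, with probe sets averaged, with array weights, with the covariate and with the replicate block. They also stayed 0 among genes above the 25th percentile of level and at an adjusted p under 0.01. The median difference of 0.13 was 0.03 after quantile normalization, 0.19 with the covariate and 0.11 to 0.19 without 1 array. Other replication genes called higher (5) were 3 after quantile normalization and after median centring, 0 with the covariate, 2 at 0.01 and 1 to 4 without 1 array. With array weights, above the 50th percentile of level and at 0.10 they were 6. The 1 called lower was 0 with the covariate and at 0.01, and 0 to 1 without 1 array. Over all genes the 954 higher and 266 lower were 625 and 470 after quantile normalization, 165 and 51 with the covariate, and 439 and 95 at 0.01. At 0.10 the calls were 1319 higher and 462 lower, and without 1 array the counts were 494 to 929 and 121 to 378. With the replicate block, which the labels do not support as a pairing, 3 of the 45 genes and 3 of the other replication genes were called higher and 716 and 196 of all genes. Since the covariate's values did not overlap between the groups, calls lost with it decide nothing. With the covariate E2f1 read -0.06 in place of 0.32. For the other single-gene results under these alternatives, 67 calls ended, 9 began and 313 kept their side; the cause was not tested.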

Other observations

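Mitosis genes, whose products act after replication ends, had a larger median difference than the 45 replication genes (0.31 against 0.13), and that contrast was not tested. Of 19 measured, 4 rose, 0 fell and 15 did not pass, and 18 were above 0. Beside them, 7.87% of genes above the background guide were called higher and 55.9% were above 0. Over all tested genes these shares were 4.3% and 47.2%. The median moved with scaling (0.22 after quantile normalization, where 0 passed, and 0.26 after median centring, where 2 passed). With the median of unnamed probe sets as a covariate, which separates poorly from group, 0 passed in limma and 17 were above 0. Tpx2, a spindle assembly factor, read 5.44, 5.41 and 5.31 in WT arrays and 5.92, 6.13 and 5.99 in KO arrays (0.63, SE 0.10, limma adjusted p = 0.00807), and it passed whichever of the 6 arrays was left out. Kif11, a spindle motor gene, rose by 0.67 (SE 0.15) and Ttk, a checkpoint kinase gene, by 0.68, and each passed in 1 of the 6 fits without 1 array (adjusted p up to 0.123 and 0.128). Nusap1, another spindle gene, rose by 0.48 and passed in 0 of those fits (adjusted p 0.0576 to 0.155). Mki67, the gene of the proliferation marker Ki-67, read 6.32, 5.37 and 6.29 in WT arrays and 7.10, 7.03 and 6.55 in KO arrays. Its groups did not overlap, and the difference of 0.90 (SE 0.25) had an adjusted p of 0.0796. The summed linear level of the 19 genes was 611 to 661 in WT and 806 to 859 in KO arrays.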
